A study of Homo sapiens with 12 samples.

Results

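The SLC25 genes encode the mitochondrial carrier family. All rows of the gene count table whose symbol begins with SLC25A were taken, which gave 54 of 26485 rows: 48 protein-coding genes, 4 antisense RNAs (SLC25A5-AS1, SLC25A21-AS1, SLC25A25-AS1 and SLC25A30-AS1) and 2 pseudogenes. RNA sequencing was done on 12 libraries of HepG2, an established human hepatoma cell line. The 3 lines labelled ZHX3-depleted, Z2, Z5 and Z9, had received the CRISPR vectors sgZHX3-2, sgZHX3-5 and sgZHX3-9 by lipofection, and the line labelled WT, Empty, an empty CRISPR vector. ZHX3 encodes a zinc finger and homeobox protein, and all 4 lines had been selected with blasticidin. Each line was grown in 3 wells, a to c, which are the replicates. The labels do not say whether a line is 1 clone or a pool, and there is 1 control line, so a difference between lines cannot be told apart from differences that arose while each line was made.

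Mitochondrial carriers are small proteins that sit mostly in the inner mitochondrial membrane and pass nucleotides, amino acids, carboxylates, phosphate, cofactors and metal ions between cytosol and matrix. Each is built from repeated copies of a short module, and many work as exchangers that swap substrates across the membrane. In liver they feed the urea cycle, the malate-aspartate shuttle, fatty acid oxidation, fatty acid synthesis from citrate, haem synthesis and the export of ATP from mitochondria.

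Library totals ran from 50864744 to 65428204 counts. ZHX3 had 33.8 to 34.9 CPM (read counts scaled to a common library size) in Z2, 32.5 to 33.5 in Z5 and 33.5 to 34.8 in Z9, against 32.7 to 33.5 in Empty, and its count was not called in any of them (edgeR adjusted p = 0.402, 0.972 and 0.490), which does not test what an edit does to the protein. All 8 hepatocyte markers had counts in every well, with a summed level of 42400 to 47700 CPM in Z2, 43530 to 44830 in Z5 and 41130 to 41940 in Z9, against 47330 to 48680 in Empty. Leukocyte markers summed to at most 1.75 CPM in any well, endothelial markers to at most 8.57 and fibroblast markers to at most 32.7. Of the fibroblast markers, PDGFRB had 21.1 to 32.5 CPM, COL1A1 0.24 to 1.08, COL3A1 0.037 to 0.25 and DCN 0 counts throughout. A list of 8 proliferation genes summed to 556 to 651 CPM in Z2, 569.7 to 686.5 in Z5 and 553 to 619.6 in Z9, against 914 in Empty a, 791 in Empty b and 703 in Empty c. In the mean of Z2, Z5 and Z9 against Empty, 0 of the 8 rose and 8 fell (edgeR adjusted p under 0.05), with a median log2 fold change of -0.42. Over all tested genes 13.0% rose and 12.6% fell. The call of PCNA was lost without Empty a (edgeR adjusted p = 0.0851). The part of this list in the results was not tested. Well b of Z2 stood apart: SLC25 rows took 0.257% of its counts and 0.292% to 0.305% in the 11 other libraries.

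The 5′ ends of the members called the same way in all 3 labelled lines are shown for reference. They are the RefSeq promoter windows (assembly GRCh38.p14), 300 bases each, 250 before the start and 50 from it, read 5′ to 3′ along the gene. Capitals mark CCAAT on either strand (CCAAT or ATTGG), the letters of the CCAAT box. The windows lie at chr14:100306395-100306694 on the minus strand for SLC25A29, chr14:100323089-100323388 on the plus strand for SLC25A47, chr2:171894195-171894494 on the minus strand for SLC25A12 and chr1:9539215-9539514 on the plus strand for SLC25A33.
SLC25A29: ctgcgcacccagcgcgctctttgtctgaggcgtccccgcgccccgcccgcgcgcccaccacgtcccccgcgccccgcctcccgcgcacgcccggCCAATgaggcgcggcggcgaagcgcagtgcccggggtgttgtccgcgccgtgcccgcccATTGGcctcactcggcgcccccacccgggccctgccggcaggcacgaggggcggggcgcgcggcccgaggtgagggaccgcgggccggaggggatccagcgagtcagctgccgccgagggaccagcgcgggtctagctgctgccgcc
SLC25A47: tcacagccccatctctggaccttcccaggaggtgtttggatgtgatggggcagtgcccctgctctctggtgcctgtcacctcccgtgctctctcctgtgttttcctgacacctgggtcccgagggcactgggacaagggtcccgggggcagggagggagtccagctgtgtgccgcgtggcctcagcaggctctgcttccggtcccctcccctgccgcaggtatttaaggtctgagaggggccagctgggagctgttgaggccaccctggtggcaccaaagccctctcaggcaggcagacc
SLC25A12: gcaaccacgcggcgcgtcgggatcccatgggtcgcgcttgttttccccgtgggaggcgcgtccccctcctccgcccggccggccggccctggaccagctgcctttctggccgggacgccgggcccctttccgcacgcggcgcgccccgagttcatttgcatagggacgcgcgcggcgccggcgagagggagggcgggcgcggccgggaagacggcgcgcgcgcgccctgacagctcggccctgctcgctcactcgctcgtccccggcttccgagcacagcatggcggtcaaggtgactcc
SLC25A33: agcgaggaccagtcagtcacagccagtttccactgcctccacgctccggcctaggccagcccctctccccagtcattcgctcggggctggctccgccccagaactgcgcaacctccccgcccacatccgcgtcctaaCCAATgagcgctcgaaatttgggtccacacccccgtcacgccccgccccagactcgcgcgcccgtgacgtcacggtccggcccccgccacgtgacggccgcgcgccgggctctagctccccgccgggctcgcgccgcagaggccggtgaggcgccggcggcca
SLC25A29 holds CCAAT on each strand, 156 and 97 bases before the start, SLC25A33 holds it once, 113 bases before, and the windows of SLC25A47 and SLC25A12 hold none. CCAAT occurred on either strand in 34.6% of all 35116 RefSeq promoter windows and in 45.1% of the 51 windows of the 40 protein-coding members in that table. The letters GGGCGG, searched on both strands, occurred 3 times in SLC25A29, 3 times in SLC25A33, 2 times in SLC25A12 and not in SLC25A47, against 45.0% of all windows and 66.7% of the members' with at least 1 match. The window of SLC25A47 is the least rich in G and C, at 65.0%, against 72.7% to 80.0% in the 3 others. These matches describe letters and not bound sites.

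Of the 54 rows, 53 had at least 1 count. SLC25A3P1 had none in any well and SLC25A51P1 1 count in all. The filter on low counts left 47 rows for testing, 44 protein-coding genes and 3 antisense RNAs. Protein-coding genes that did not pass were SLC25A2, the second ornithine carrier, with 33 counts over all 12 libraries, SLC25A48 with 26, the testis ADP/ATP carrier SLC25A31 with 12 and SLC25A52, a close relative of the NAD carrier SLC25A51, with 8. SLC25A30-AS1 had 89. Levels of different genes are compared as CPM per kilobase of exon (GENCODE 29 exon lengths).

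Of the ADP/ATP carriers, which export ATP from the matrix, SLC25A6 and SLC25A5 were the highest members per kilobase. SLC25A6 stood at 388 ± 56 CPM per kilobase in Z2, 424 ± 15 in Z5 and 427 ± 13 in Z9, against 405 ± 12 in Empty (SD, n = 3 wells each). Z2 b was at 323 CPM per kilobase, and without it SLC25A6 averaged 420.0 in Z2. SLC25A5 followed with 213 ± 8.5 in Z2, 221 ± 2.5 in Z5 and 214 ± 5.9 in Z9, against 202 ± 3.3 CPM per kilobase in Empty. The heart and muscle form SLC25A4 was far lower, at 8.94 in Z2, 9.36 in Z5 and 9.34 in Z9, against 9.67 CPM per kilobase in Empty. By length-scaled level SLC25A6 made up 63.4% of the ADP/ATP carriers in Z2, 64.8% in Z5 and 65.7% in Z9, against 65.6% in Empty. Next in order came the citrate carrier SLC25A1, with 89.6 ± 10 CPM per kilobase in Z2, 101 ± 5.3 in Z5 and 91.0 ± 6.3 in Z9, against 92.2 ± 2.5 in Empty. The phosphate carrier SLC25A3 had 45.3 ± 3.6 in Z2, 49.1 ± 0.86 in Z5 and 46.4 ± 1.1 in Z9, against 48.7 ± 0.89 CPM per kilobase in Empty. The place of SLC25A3 rests on the length used, 8896 bases of exon or 6087 for the longest transcript. By CPM alone it stood above SLC25A5 in every line, at 433 against 303 CPM in Empty. The mitochondrial glutathione carrier SLC25A39 had 34.8 ± 4.0 in Z2, 37.1 ± 1.8 in Z5 and 42.3 ± 0.57 in Z9, against 44.4 ± 2.0 CPM per kilobase in Empty. These 5 genes held 77.1% of the family's length-scaled level in Z2, 78.1% in Z5 and 77.7% in Z9, against 76.3% in Empty. In Empty, 9 members stood above 20 CPM per kilobase, among them citrin (SLC25A13), SLC25A10, SLC25A33 and SLC25A15, and 9 of the tested protein-coding genes stood below 1, among them SLC25A47, SLC25A21, SLC25A41 and SLC25A27. Counts of SLC25A5, SLC25A3 and SLC25A51 are uncertain, since near-identical processed copies exist and the handling of reads with several matches is not given.

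**Figure D1:**
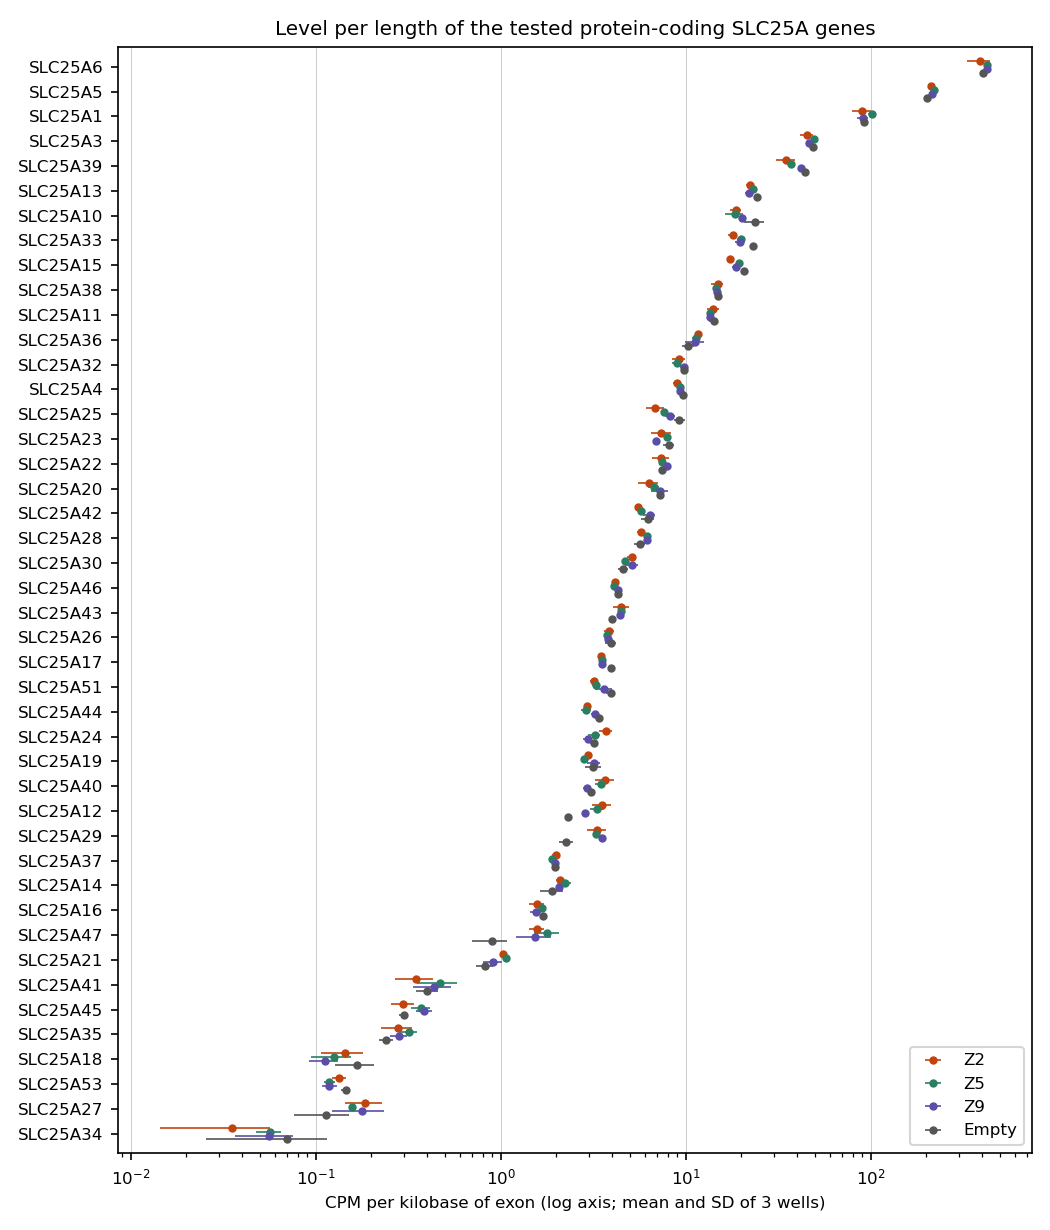
Level of the 44 tested protein-coding members in CPM per kilobase of exon on a log axis, as the mean and SD of 3 wells in Z2, Z5, Z9 and Empty. SLC25A6 and SLC25A5 are highest in every line, and the order of the genes is much the same in the 4 lines.

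The family as a whole stood at a similar level in the 4 lines. The 48 protein-coding members summed to 2827 ± 214 CPM in Z2, 2995 ± 30.2 in Z5 and 2971 ± 48.4 in Z9, against 2960 ± 33.5 in Empty (SD, n = 3). Z2 b was at 2585 CPM, and without it the sum averaged 2948 in Z2. In bulk RNA, a change in the number of cells that express a gene and a change in RNA per cell cannot be told apart. Genes with an edgeR adjusted p under 0.05, adjusted over all 15289 tested genes, are called here.

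In the mean of Z2, Z5 and Z9 against Empty, 4 of 47 members rose and 8 fell. Over all tested genes 25.6% were called, 13.0% higher and 12.6% lower, so the share of members called was near the background. The median log2 fold change was -0.018 over the 47 members and 0.0029 over all tested genes. In Z2, 5 members rose and 7 fell (all genes 23.9% called, 12.4% higher and 11.5% lower). In Z5, 4 rose and 6 fell (all genes 15.0%, 8.27% higher and 6.68% lower). In Z9, 4 rose and 2 fell (all genes 19.2%, 9.66% higher and 9.58% lower). Without Empty a the count for the mean fell to 5 members, SLC25A29, SLC25A12, SLC25A47, SLC25A33 and SLC25A25, which kept their calls under every alternative run, and the count for Z2 fell to 7 and for Z5 to 4. Leaving out Z5 b gave 4 called members in Z5, and leaving out Z5 c gave 3. For Z9, the count was 10 when Z2 b was left out and 3 when Z9 b was. The 3 comparisons share the Empty wells, and their p-values rest on well-to-well spread within lines.

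**Figure D2:**
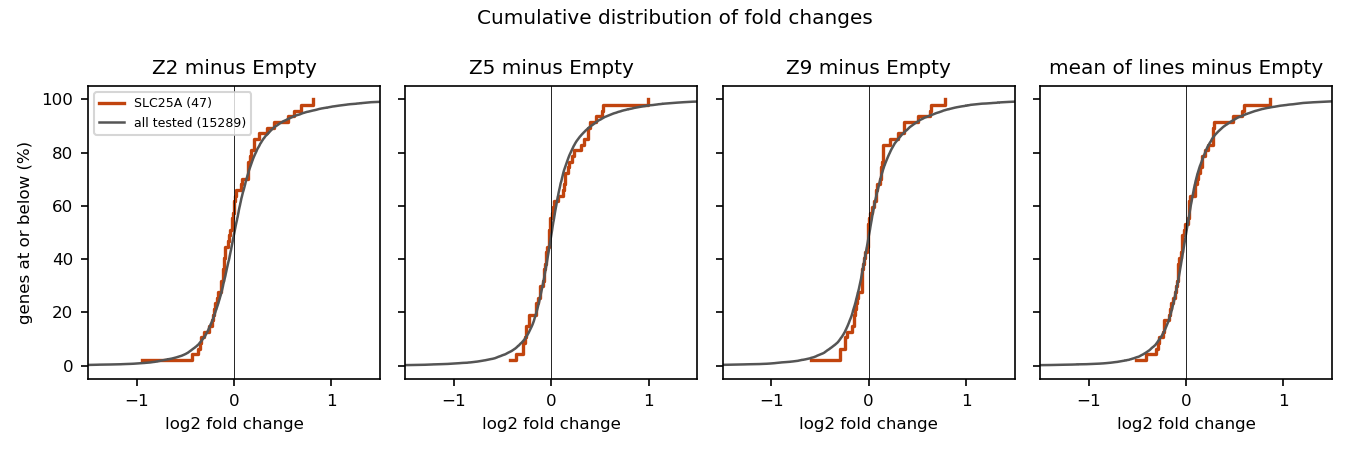
Cumulative distribution of log2 fold changes for the 47 tested members and for all 15289 tested genes, for each labelled line and for their mean against Empty. The curves of the members follow those of all genes closely, with medians of -0.041, -0.024, -0.0066 and -0.018 for the members.

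Called in the same direction in all 3 labelled lines were 4 of 47 members: SLC25A29, SLC25A12 and SLC25A47 rose and SLC25A33 fell. Of all tested genes 8.78% were called in the same direction in all 3, 4.98% higher and 3.80% lower. All 9 wells of the labelled lines lay above the 3 Empty wells for 5 members (SLC25A29, SLC25A47, SLC25A12, SLC25A43 and SLC25A5) and below them for 6 (SLC25A33, SLC25A15, SLC25A39, SLC25A10, SLC25A17 and SLC25A25), and this held for 8.83% and 8.31% of all tested genes.

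**Figure D3:**
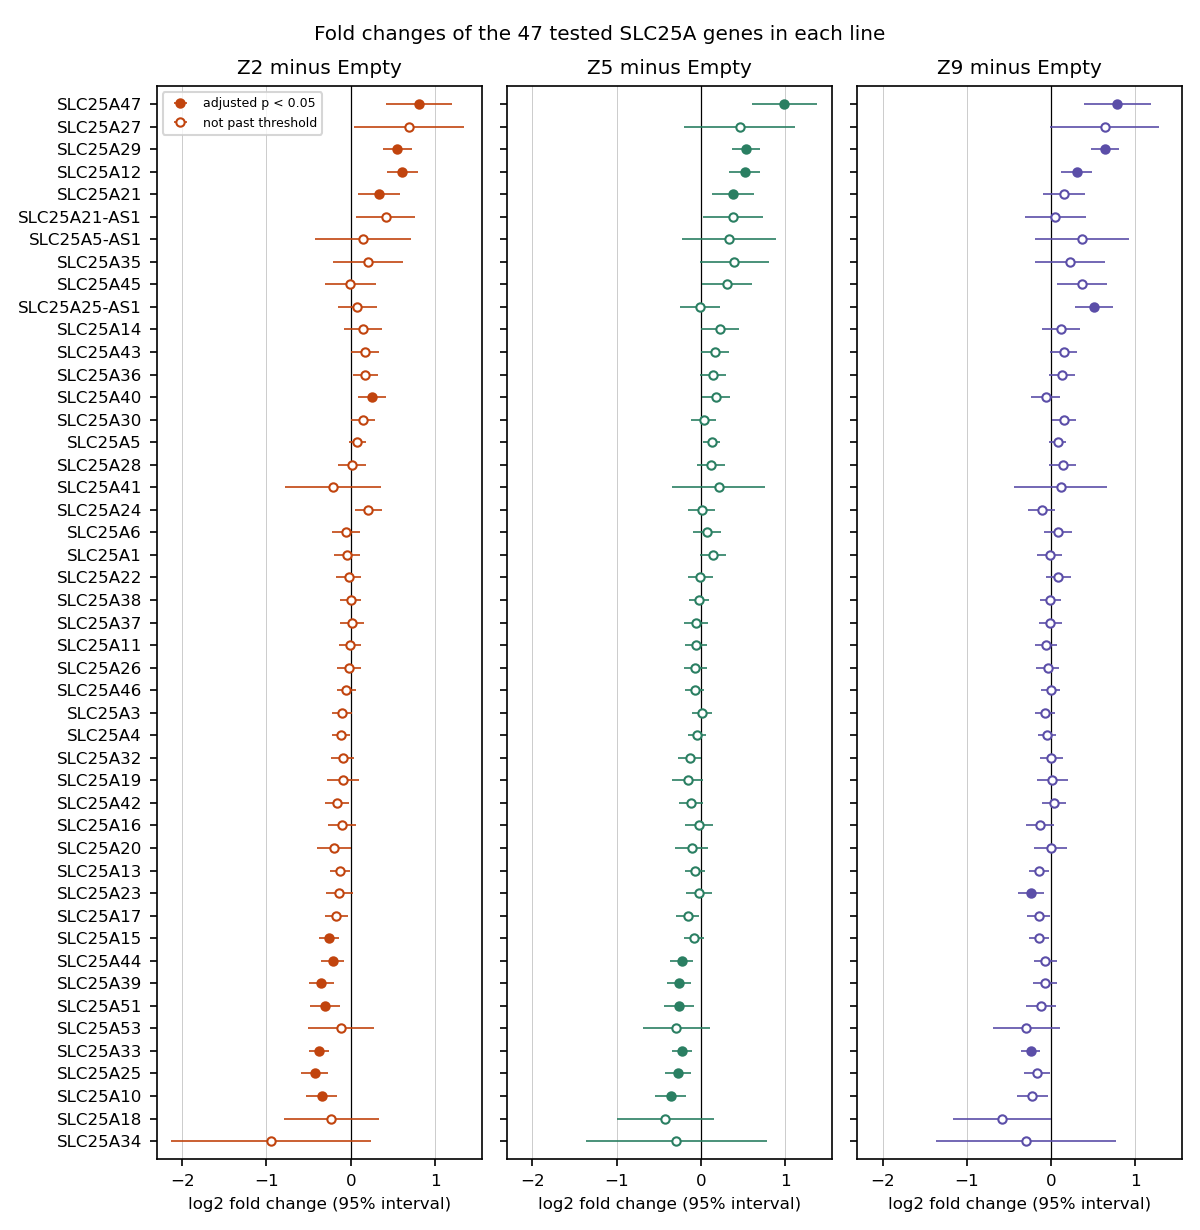
log2 fold change with its 95% interval for the 47 tested members in Z2, Z5 and Z9 against Empty, ordered by the mean of the 3 lines. Filled points passed an edgeR adjusted p of 0.05. SLC25A47, SLC25A29 and SLC25A12 are filled above 0 and SLC25A33 below 0 in all 3 panels.

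Carriers of amino acids and related substrates included 10 tested members. In the mean of the labelled lines 2 rose and 2 fell, with a median of -0.075. Among all tested genes 13.0% rose and 12.6% fell, with a median of 0.0029. SLC25A29, a carrier of lysine, arginine and other basic amino acids, had 26.4, 21.4 and 26.3 CPM in Z2, 24.0, 25.1 and 24.0 CPM in Z5 and 25.7, 26.7 and 26.3 CPM in Z9, against 16.99, 15.4 and 18.2 CPM in Empty. All 9 wells were above the highest Empty well, and Z2 b was the lowest of them. The log2 fold change was 0.57 ± 0.067 (SE) in the mean (edgeR adjusted p = 8.05e-06), with 0.55 ± 0.080 in Z2, 0.53 ± 0.080 in Z5 and 0.64 ± 0.080 in Z9. Without Z2 b the mean was 0.61. The exons of SLC25A29 share 693 bases with AL157871.1 on the other strand and 99 with AL157871.6 on the same strand. Neither of these has counts of its own here.

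The aspartate-glutamate carriers SLC25A12 (aralar) and SLC25A13 (citrin) form part of the malate-aspartate shuttle, and citrin is the main form in liver. SLC25A12 had 15.9, 19.9 and 19.2 CPM in Z2, 15.6, 18.3 and 17.9 CPM in Z5 and 14.5, 15.6 and 14.5 CPM in Z9, against 12.4, 12.01 and 11.7 CPM in Empty. The labelled lines did not overlap with Empty, and Z9 lay closest to it. The mean log2 fold change was 0.48 ± 0.073 (edgeR adjusted p = 0.000132), with 0.61 ± 0.087 in Z2, 0.52 ± 0.087 in Z5 and 0.31 ± 0.088 in Z9. The call in Z9 was lost without Empty b, Empty c or Z9 b (edgeR adjusted p = 0.0602, 0.0683 and 0.0927). SLC25A13 averaged 22.2 CPM per kilobase in Z2, 23.1 in Z5 and 22.0 in Z9, against 24.3 in Empty, and was not called in the mean (-0.12, 95% interval -0.21 to -0.021, edgeR adjusted p = 0.0682). By length-scaled level SLC25A12 made up 13.8% ± 1.8 of the pair in Z2, 12.7% ± 1.4 in Z5 and 11.6% ± 0.65 in Z9, against 8.75% ± 0.44 in Empty, and Z2 was at 13.0% without Z2 b. The exons of SLC25A12 share 181 bases with METAP1D on the other strand, whose mean log2 fold change was 0.018.

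SLC25A15, the ornithine carrier of the urea cycle, had 32.5, 30.4 and 32.5 CPM in Z2, 35.2, 36.0 and 36.5 CPM in Z5 and 36.5, 33.3 and 33.4 CPM in Z9, against 39.4, 37.6 and 37.2 CPM in Empty. It lay below Empty in all 9 wells, with a mean of -0.16 ± 0.045 (edgeR adjusted p = 0.0134; 0.107 without Empty a), and was called in Z2 only (-0.26 ± 0.056) at the threshold used. SLC25A44, a carrier of branched-chain amino acids, had 21.5, 21.0 and 21.9 CPM in Z2, 22.6, 21.1 and 19.9 CPM in Z5 and 24.5, 22.2 and 24.4 CPM in Z9, against 25.8, 24.0 and 24.8 CPM in Empty. Z2 and Z5 lay below all Empty wells, while Z9 overlapped with them. Its mean was -0.17 ± 0.052 (edgeR adjusted p = 0.0236), and the call was lost without Empty a or Empty c (edgeR adjusted p = 0.148 and 0.0633). The other 6 tested members of this group, the glutamate carriers SLC25A22 and SLC25A18, the carnitine-acylcarnitine carrier SLC25A20, the S-adenosylmethionine carrier SLC25A26, the glycine carrier SLC25A38 and citrin, were not called in any line.

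Carriers of nucleotides and cofactors had 15 tested members, of which 0 rose and 4 fell in the mean. Their median was -0.080, and 13.0% and 12.6% of all tested genes rose and fell, with a median of 0.0029. SLC25A33, a pyrimidine nucleotide carrier, had 72.4, 65.2 and 69.7 CPM in Z2, 79.8, 76.0 and 73.7 CPM in Z5 and 79.1, 77.0 and 70.4 CPM in Z9, against 90.4, 87.9 and 90.1 CPM in Empty. All 9 wells lay below the lowest Empty well. The mean was -0.28 ± 0.045 (edgeR adjusted p = 0.000201), with -0.37 ± 0.056 in Z2, -0.23 ± 0.056 in Z5 and -0.24 ± 0.056 in Z9. The call in Z5 was lost without Z5 c (edgeR adjusted p = 0.0679). Its relative SLC25A36, which also carries pyrimidine nucleotides, was not called (0.15, 95% interval 0.024 to 0.27, edgeR adjusted p = 0.0752).

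SLC25A25, an ATP-Mg/phosphate carrier, had 37.9, 30.6 and 33.3 CPM in Z2, 38.9, 37.4 and 37.3 CPM in Z5 and 37.6, 41.4 and 42.7 CPM in Z9, against 44.9, 49.2 and 43.0 CPM in Empty. The 9 wells lay below Empty, with Z2 lowest and Z9 nearest. The mean was -0.29 ± 0.060 (edgeR adjusted p = 0.0017), with -0.43 ± 0.075 in Z2, -0.27 ± 0.074 in Z5 and -0.17 ± 0.074 in Z9, where it was not called (edgeR adjusted p = 0.115). The call in Z5 was lost without Empty a, Empty b, Z5 b or Z5 c (edgeR adjusted p = 0.0532, 0.105, 0.0725 and 0.0791). The other ATP-Mg/phosphate carriers were SLC25A23, SLC25A24 and SLC25A41. SLC25A23 had 32.0, 35.2 and 40.6 CPM in Z2, 37.0, 39.4 and 39.8 CPM in Z5 and 33.5, 34.1 and 32.7 CPM in Z9, against 39.4, 36.8 and 42.1 CPM in Empty. It fell in Z9 (-0.24 ± 0.074, edgeR adjusted p = 0.033), whose wells lay below Empty, and this call was lost without Empty a, Empty c or any 1 of the Z9 wells (edgeR adjusted p = 0.0711 to 0.124). SLC25A41 was not called in any comparison.

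The NAD carrier SLC25A51 had 11.2, 10.4 and 10.8 CPM in Z2, 11.5, 11.4 and 10.5 CPM in Z5 and 11.4, 11.6 and 13.7 CPM in Z9, against 14.05, 12.5 and 13.5 CPM in Empty. Z2 and Z5 were below Empty and Z9 c overlapped with it. The mean was -0.23 ± 0.068 (edgeR adjusted p = 0.0196), and the call was lost without Empty a or Empty c (edgeR adjusted p = 0.13 and 0.0672). SLC25A17, a peroxisomal carrier of coenzyme A and other nucleotides, had 13.7, 13.7 and 14.4 CPM in Z2, 14.1, 14.4 and 13.8 CPM in Z5 and 14.8, 13.8 and 13.9 CPM in Z9, against 15.8, 15.1 and 16.2 CPM in Empty. All 9 wells lay below Empty by a small margin, with a mean of -0.16 ± 0.053 (edgeR adjusted p = 0.0362) and no call in any single line. This call was lost without any of Empty a, b and c, Z5 c, Z9 b and Z9 c, and with no filter beyond 1 count (edgeR adjusted p = 0.0545 to 0.145). The ADP/ATP carriers were not called: the mean was 0.028 for SLC25A6 (95% interval -0.11 to 0.16, edgeR adjusted p = 0.789), 0.094 for SLC25A5 (0.011 to 0.18, edgeR adjusted p = 0.0917) and -0.069 for SLC25A4 (-0.16 to 0.017, edgeR adjusted p = 0.235). SLC25A6 had 892, 699.6 and 926 CPM in Z2, 881, 946 and 925 CPM in Z5 and 919, 955 and 898 CPM in Z9, against 856, 866 and 905 CPM in Empty, so Z2 b was the 1 low well. SLC25A5 had 312, 313 and 334 CPM in Z2, 331, 327 and 335 CPM in Z5 and 310, 327 and 324 CPM in Z9, against 298, 306 and 307 CPM in Empty, where the 9 wells lay above Empty without passing the test.

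Carriers of carboxylates and phosphate, with the uncoupling-protein-like carriers, had 8 tested members. In the mean 1 rose and 1 fell (against 13.0% and 12.6% of all tested genes), with a median of 0.068. The dicarboxylate carrier SLC25A10, which exchanges malate and succinate for phosphate, had 52.7, 46.6 and 47.5 CPM in Z2, 54.3, 43.8 and 46.7 CPM in Z5 and 50.5, 54.3 and 54.6 CPM in Z9, against 70.5, 59.3 and 56.3 CPM in Empty. The 9 wells lay below Empty, and Empty a was the highest of all. The mean was -0.31 ± 0.069 (edgeR adjusted p = 0.00403) and -0.21 without Empty a, where the call was lost (edgeR adjusted p = 0.0564). SLC25A10 was called in Z2 (-0.34 ± 0.087) and Z5 (-0.36 ± 0.087) and not in Z9 (-0.22 ± 0.086, edgeR adjusted p = 0.0831). The Z2 call was lost without Empty a or Z2 b (edgeR adjusted p = 0.0598 and 0.0638), and the Z5 call without Empty a, Z5 b or Z5 c (edgeR adjusted p = 0.0648, 0.0623 and 0.0565) and with only Z5 and Empty fitted (0.0569). The exons of SLC25A10 share 1221 bases with AC139530.2 on the same strand, which has no counts of its own here.

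SLC25A21, the oxodicarboxylate carrier of lysine breakdown, had 3.87, 3.80 and 3.84 CPM in Z2, 4.03, 3.91 and 3.93 CPM in Z5 and 3.82, 3.15 and 3.16 CPM in Z9, against 2.96, 2.76 and 3.39 CPM in Empty. Z2 and Z5 were above Empty and 2 Z9 wells were within its range. The mean was 0.29 ± 0.098 (edgeR adjusted p = 0.0384), and this call was lost without any 1 of Empty a, Empty b, Z2 c, Z5 a, Z5 b, Z5 c and Z9 a, and with no filter beyond 1 count (edgeR adjusted p = 0.0516 to 0.191). Its exons share 586 bases with SLC25A21-AS1 and 481 with PAX9 on the other strand. The strand setting is not given, so how reads of these stretches were counted is not known. SLC25A21-AS1 was not called in the mean (0.28 ± 0.14, edgeR adjusted p = 0.148), nor was PAX9 (1.10 ± 0.48, edgeR adjusted p = 0.105).

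The 2 highest genes of this group were not called. The citrate carrier SLC25A1, which supplies cytosolic acetyl units for lipid synthesis, had 187, 167 and 209.8 CPM in Z2, 200.3, 216 and 221 CPM in Z5 and 176, 200.2 and 196 CPM in Z9, against 191, 189.8 and 199 CPM in Empty, with a mean of 0.026 (95% interval -0.099 to 0.15, edgeR adjusted p = 0.786). The phosphate carrier SLC25A3 had 415, 367 and 427 CPM in Z2, 432, 433 and 446 CPM in Z5 and 401, 417 and 419 CPM in Z9, against 425, 441 and 432 CPM in Empty, with a mean of -0.053 (-0.15 to 0.043, edgeR adjusted p = 0.424). Pooled over the labelled lines, the wells of both genes overlapped with those of Empty. By line, every Z5 well of SLC25A1 lay above Empty, and every Z9 well of SLC25A3 lay below it. Neither of these was called (edgeR adjusted p = 0.218 and 0.421), and the wells of the other lines overlapped with Empty. The oxoglutarate carrier SLC25A11 of the malate-aspartate shuttle was at -0.043 (-0.15 to 0.061, edgeR adjusted p = 0.564). SLC25A27, an uncoupling-protein-like carrier read from 13 to 43 counts per well, was at 0.59 with a wide interval (0.049 to 1.14, edgeR adjusted p = 0.102).

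Of the 4 carriers of metals and glutathione, 0 rose and 1 fell in the mean (against 13.0% and 12.6% of all tested genes), with a median of 0.037. SLC25A39 imports glutathione into mitochondria and SLC25A40 is its close relative. SLC25A39 had 135, 107 and 127 CPM in Z2, 136, 132 and 124 CPM in Z5 and 151, 147 and 148 CPM in Z9, against 165, 152 and 153 CPM in Empty. All 9 wells lay below Empty, Z9 narrowly. The mean was -0.23 ± 0.055 (edgeR adjusted p = 0.00624), with -0.35 ± 0.069 in Z2, -0.26 ± 0.069 in Z5 and -0.070 ± 0.069 in Z9, where it was not called (edgeR adjusted p = 0.522). The call of the mean was lost without Empty a (edgeR adjusted p = 0.0664) and that in Z5 without Empty a, Z5 b or Z5 c (edgeR adjusted p = 0.0951, 0.0519 and 0.0956). SLC25A40 rose in Z2 alone at the threshold used (0.25 ± 0.081, edgeR adjusted p = 0.0304), with 16.5, 20.8 and 18.4 CPM in Z2, 16.7, 17.4 and 18.8 CPM in Z5 and 14.2, 15.1 and 15.4 CPM in Z9, against 15.2, 15.7 and 15.8 CPM in Empty. The Z2 and Z5 wells lay above Empty, Z2 b highest, and the Z2 value was 0.16 without Z2 b, where the call was lost (edgeR adjusted p = 0.127). That call was also lost without Z2 c or any 1 Empty well and with only Z2 and Empty fitted (edgeR adjusted p = 0.0624 to 0.0996). By length-scaled level SLC25A40 made up 9.63% of the pair in Z2, 8.58% in Z5 and 6.49% in Z9, against 6.48% in Empty, and Z2 was at 8.50% without Z2 b. The iron importers of the inner membrane, mitoferrins SLC25A37 (-0.018) and SLC25A28 (0.092), were not called in the mean (edgeR adjusted p = 0.839 and 0.319). SLC25A40 shares 142 exon bases with the replication gene DBF4 on the other strand, which fell (-0.31 ± 0.064, edgeR adjusted p = 0.00197).

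Among 7 tested members with other or unassigned substrates, 1 rose and 0 fell in the mean (against 13.0% and 12.6% of all tested genes), with a median of 0.16. SLC25A47, a carrier made mostly in liver, had 3.01, 2.94 and 2.52 CPM in Z2, 2.74, 3.72 and 3.16 CPM in Z5 and 2.25, 3.44 and 2.64 CPM in Z9, against 1.41, 2.01 and 1.41 CPM in Empty. All 9 wells lay above the highest Empty well. It had the largest fold of the members called in the mean, at 0.86 ± 0.16 (1.82-fold, 95% interval of the log2 value 0.53 to 1.19, edgeR adjusted p = 0.000673), with 0.81 ± 0.19 in Z2, 0.99 ± 0.18 in Z5 and 0.79 ± 0.19 in Z9. The call in Z9 was lost without Z9 b (edgeR adjusted p = 0.0528). SLC25A43, whose 9 wells also lay above Empty, was not called (0.16, 95% interval 0.027 to 0.30, edgeR adjusted p = 0.0729), and SLC25A46, an outer-membrane member linked to mitochondrial shape, was at -0.045 (-0.14 to 0.049, edgeR adjusted p = 0.495). SLC25A34 was at -0.51 with an interval of -1.40 to 0.37.

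**Figure D4:**
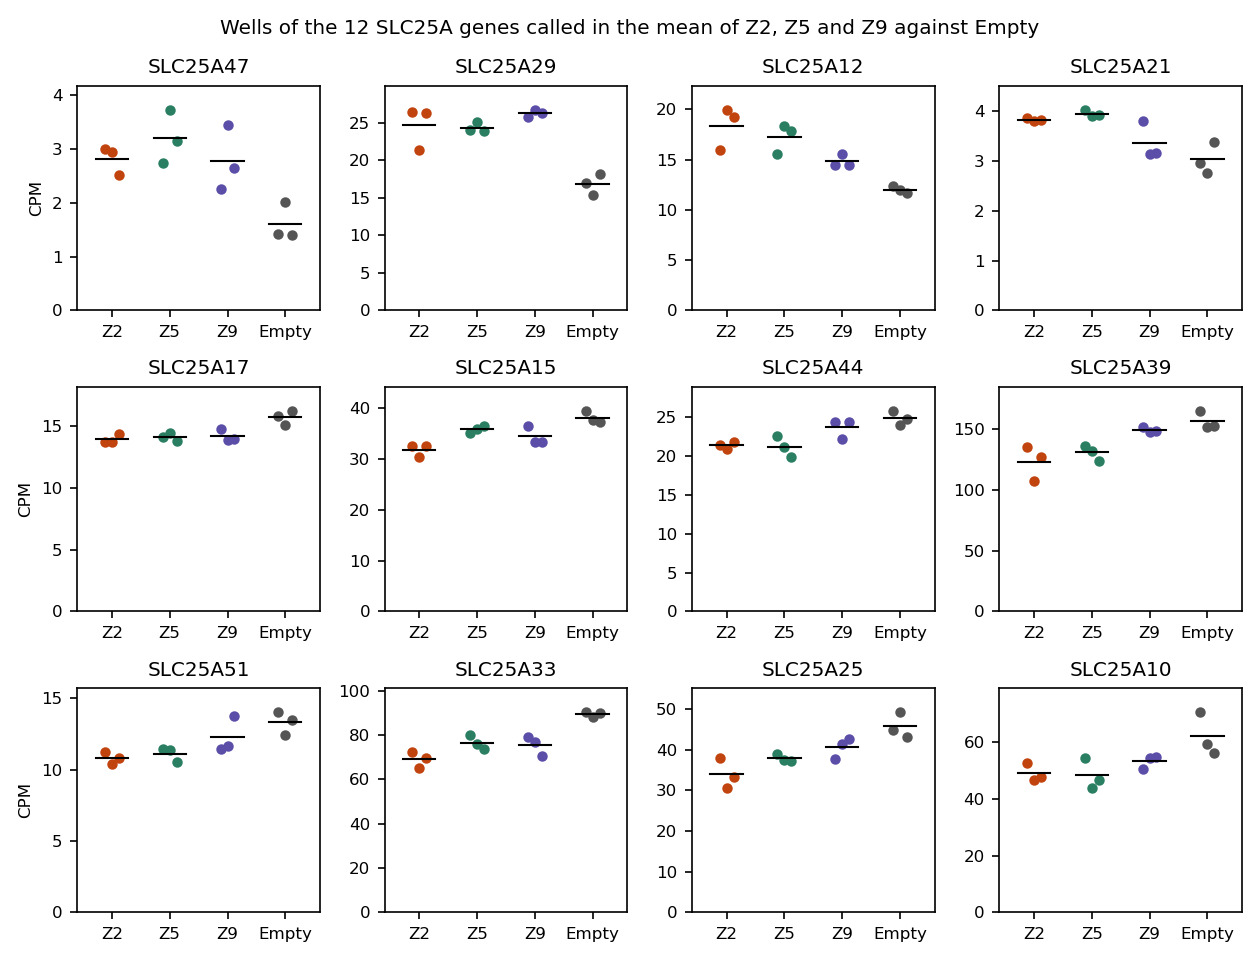
CPM in each well, with the mean of 3 wells as a bar, for the 12 members called in the mean of Z2, Z5 and Z9 against Empty. SLC25A47, SLC25A29 and SLC25A12 lie above Empty in all 9 wells, SLC25A33, SLC25A25, SLC25A10, SLC25A39, SLC25A15 and SLC25A17 below it, and SLC25A21, SLC25A44 and SLC25A51 overlap with it through Z9.

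The genes around the members called in all 3 lines were looked at, since neighbours can move together. SLC25A29 and SLC25A47 are neighbours on chromosome 14 that are read away from each other, with start sites 16895 bases apart (GRCh38.p14). Of the 10 other tested genes within 1 Mb, 3 rose and 0 fell in the mean of the labelled lines, with a median of 0.068. They were CCDC85C (0.13), EVL (0.22) and DLK1, an imprinted gene active in fetal liver (0.47), and the calls of CCDC85C and EVL were lost without any 1 of the Empty wells (edgeR adjusted p = 0.0779 to 0.189 and 0.0522 to 0.122), that of CCDC85C also without Z2 c, any 1 of the Z5 wells, Z9 b or Z9 c, and with no filter beyond 1 count (0.0541 to 0.074). WARS, next to SLC25A47, was at 0.056 (edgeR adjusted p = 0.832). Within 10 Mb of SLC25A29, 19 of 115 genes rose and 10 fell (16.5% and 8.70%, against 13.0% and 12.6% of all tested genes), with a median of 0.037. Around SLC25A12 on chromosome 2, 6 of 14 genes within 1 Mb rose and 1 fell (42.9% and 7.14%), with a median of 0.11. Within 10 Mb of SLC25A12, 21 of 81 rose and 11 fell (25.9% and 13.6%, against 13.0% and 12.6% of all tested genes), with a median of 0.017. Around SLC25A33 on chromosome 1, 0 of 19 genes within 1 Mb rose and 5 fell, with a median of -0.068. Within 10 Mb of SLC25A33, 9 of 201 genes rose and 46 fell (4.48% and 22.9%, against 13.0% and 12.6% of all tested genes), with a median of -0.081. The part of the surrounding regions in the higher SLC25A12 count and the lower SLC25A33 count was not tested.

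Between the labelled lines, Z9 and Z2 differed in 5 of 47 members, 2 higher in Z9 and 3 lower, against 5.17% of all tested genes (1.96% higher and 3.21% lower). SLC25A12 was lower in Z9 (-0.31 ± 0.086, edgeR adjusted p = 0.0489), as was SLC25A40 (-0.32 ± 0.081, edgeR adjusted p = 0.0354), with every Z9 well below every Z2 well for both. SLC25A24, an ATP-Mg/phosphate carrier, had 19.2, 19.4 and 21.3 CPM in Z9, against 23.2, 27.0 and 24.4 CPM in Z2, and was lower in Z9 (-0.32 ± 0.076, edgeR adjusted p = 0.0294). It had 20.9, 20.5 and 23.6 CPM in Z5 and 20.7, 22.8 and 21.05 CPM in Empty. SLC25A39 was higher in Z9 (0.28 ± 0.069, edgeR adjusted p = 0.0329). The count of members that differed was 0 without Z2 b, Z2 c, Z9 a or Z9 b, 1 without Z9 c and 2 without Empty b or Z5 b, and it was 0 with only Z9 and Z2 fitted. The call of SLC25A12 was lost without any 1 library other than Z2 a and Z5 a (edgeR adjusted p = 0.061 to 0.165). Without Z2 b the differences were -0.26 for SLC25A24, -0.24 for SLC25A12, -0.23 for SLC25A40, 0.19 for SLC25A39 and 0.39 for SLC25A25-AS1.

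The antisense RNA SLC25A25-AS1 had 8.11, 7.10 and 6.88 CPM in Z9, 5.45, 5.17 and 5.80 CPM in Z2 and 4.89, 5.78 and 4.75 CPM in Z5, against 4.59, 5.42 and 5.50 CPM in Empty. Every Z9 well lay above all 9 others. It rose in Z9 against Empty (0.51 ± 0.11, edgeR adjusted p = 0.00332) and was higher in Z9 than in Z2 (0.43 ± 0.11, edgeR adjusted p = 0.0354) and in Z5 (0.52 ± 0.11, edgeR adjusted p = 0.0253). The call against Empty held under every alternative run (edgeR adjusted p at most 0.0243). The call against Z2 was lost without Empty b, Z2 b, Z2 c or any Z9 well and with only Z9 and Z2 fitted (edgeR adjusted p = 0.05 to 0.137), and that against Z5 without Z5 a, Z5 c or any Z9 well (0.0536 to 0.15). It was the 1 member that differed between Z9 and Z5, against 1.52% of all genes, and this count was 3 without Z2 b. SLC25A25-AS1 shares 665 exon bases with SLC25A25 on the other strand, and how reads of that stretch were counted is not given. SLC25A25 was lower in Z9 than in Empty without being called. Between Z5 and Z2, 0 of 47 members differed by edgeR and 0 by DESeq2, 6 had an unadjusted p under 0.05, and 0.00654% of all genes were called.

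**Figure D5:**
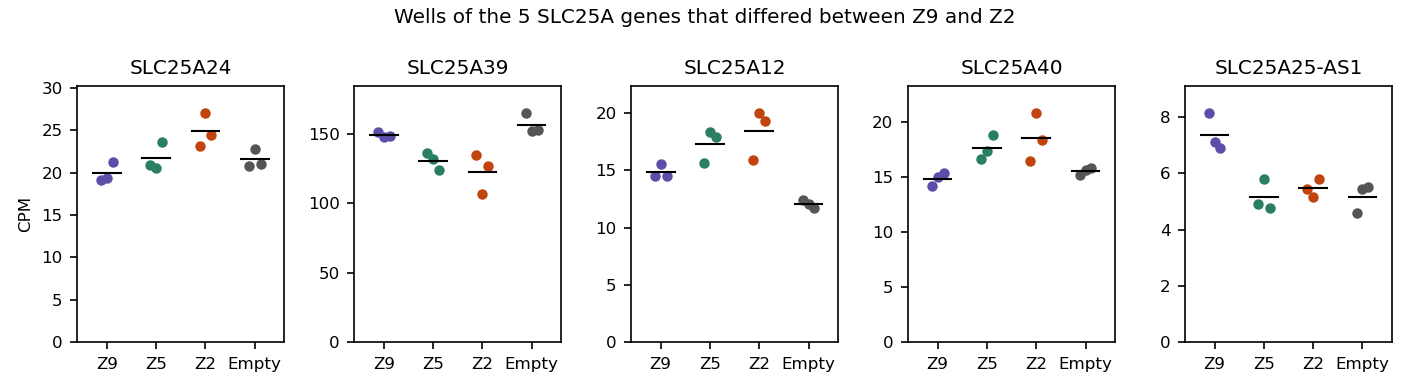
CPM in each well of Z9, Z5, Z2 and Empty, with the mean of 3 wells as a bar, for the 5 members that differed between Z9 and Z2. SLC25A25-AS1 stands higher in the 3 Z9 wells than in the 9 other wells, and SLC25A24, SLC25A12 and SLC25A40 are lower in Z9 than in Z2.

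In all, 16 of the 47 tested members were called in at least 1 comparison and 31 in none. In the mean of the labelled lines, 29 of the 35 members not called had a log2 fold change within 0.25 of 0, and the median SE over the 47 was 0.064. The wide estimates belonged to members with few counts, such as SLC25A34, SLC25A27 and SLC25A18, a glutamate carrier (-0.41, 95% interval -0.87 to 0.045).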

How the data were processed

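Read counts per gene symbol, whole numbers for 12 libraries, were used as deposited. The submitters' processing notes name STAR, featureCounts and hg38. Versions, annotation, strand setting and the handling of reads with several matches were not given in the sources used here. Per the labels' protocols, the kits were NucleoSpin RNA for extraction and NEBNext Ultra II for libraries.

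Samples were grouped by title. The counts went into edgeR 4.0.16 (R 4.3.3) with filterByExpr by line, which kept 15289 genes, TMM scaling and a robust quasi-likelihood fit of 4 line means on all 12 libraries (8 residual degrees of freedom, common biological coefficient of variation 0.0696). Benjamini-Hochberg adjustment ran over all genes tested, with a threshold of 0.05. The SE is the log2 fold change over the square root of F. CPM uses TMM-scaled totals.

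The chi-square per degree of freedom between 2 wells of 1 line was 6.31 to 45.8, above sampling noise, so each library counts once. Deviations of wells with the same letter correlated at -0.10 to 0.17 between lines, so the letters were not taken as pairs. All 54 symbols matched GENCODE 29 lengths and RefSeq GRCh38.p14. The members and gene lists were chosen with earlier results of these data known. Values in every well are given for the 12 members with the smallest adjusted p in the mean comparison, members called alike in all 3 lines, up to 6 that differed between labelled lines and the 5 highest per length; SLC25A23, SLC25A13, SLC25A36, SLC25A43 and other uncalled members were named after their values were seen. Alternatives were DESeq2 1.42.0 size factors, its Wald test, no filter beyond 1 count, at least 1 CPM in 3 libraries, the well letter as a block, a fit with only the lines compared, each library left out in turn, and the longest transcript as length.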

Additional observations from a re-analysis of the deposited data

Results flagged for a closer look

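The effects of 5 members differed between labelled lines by a test of the difference itself. In Z9 minus Z2, the log2 difference was -0.32 for SLC25A24, -0.31 for SLC25A12 and -0.32 for SLC25A40, all lower in Z9, and 0.28 for SLC25A39 and 0.43 for SLC25A25-AS1, both higher in Z9. In Z9 minus Z5, it was 0.52 for SLC25A25-AS1, higher in Z9. The 5 differences between Z9 and Z2 were not called without any 1 of Z2 b, Z2 c, Z9 a and Z9 b, nor with only Z9 and Z2 fitted. They kept their direction in each of these.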

How the results depend on the processing

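None of the 46 calls of members reversed its direction in any alternative: 18 held in all and 28 were lost in at least 1. Fold changes that were not called were not checked for reversal. Median fold changes over all genes moved by under 0.01 with DESeq2 size factors. The replicate block gave 13, 10, 7 and 13 called members for Z2, Z5, Z9 and their mean against Empty, and 7, 1 and 0 for Z9 against Z2, Z9 against Z5 and Z5 against Z2; its only changes beyond 1.5 times were in counts over all genes, 1512 for Z9 against Z2 and 488 for Z9 against Z5. DESeq2 called 1526 and 504 genes there and 11 for Z5 against Z2. With only the lines compared in the fit, fewer libraries estimate the spread. Calls then fell to 2407 genes for Z2 against Empty and to 0 members and 40 genes for Z9 against Z2. They rose to 3303 genes for Z5 against Empty, 3873 for Z9 against Empty, and 3 members and 651 genes for Z9 against Z5. The reason for these shifts was not tested. Counts in the fit of all libraries were 3654, 2286 and 2941 genes for Z2, Z5 and Z9 against Empty. They were 790, 232 and 1 genes for Z9 against Z2, Z9 against Z5 and Z5 against Z2. Leaving out 1 library at a time gave 5 to 14 members and 2107 to 4794 genes for the mean, 7 to 13 and 2133 to 4417 for Z2, 3 to 11 and 1095 to 3275 for Z5, 3 to 10 and 1729 to 4070 for Z9, 0 to 6 and 73 to 2422 for Z9 against Z2, 0 to 3 and 36 to 659 for Z9 against Z5, and 0 members and 1 to 155 genes for Z5 against Z2. The cause was not tested. The longest transcript as length left the same 5 highest genes. SLC25A12 then made up 19.3% of its pair with SLC25A13 in Z2, 17.8% in Z5 and 16.3% in Z9, against 12.5% in Empty. Depth limits members under about 50 counts per well, such as SLC25A27.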

Other observations

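Outside the SLC25A symbols, transporters and enzymes that work beside the carriers had values of their own in the mean of Z2, Z5 and Z9 against Empty. Both subunits of the mitochondrial pyruvate carrier fell, MPC1 by 0.23 ± 0.049 and MPC2 by 0.27 ± 0.054 on the log2 scale (edgeR adjusted p = 0.00266 and 0.00145), with MPC1 at 53.9 ± 2.9 CPM in Z2, 59.2 ± 1.9 in Z5 and 48.5 ± 2.9 in Z9, against 62.9 ± 4.1 in Empty. In Z5 alone neither was called, with MPC1 at -0.088 and MPC2 at -0.18 (edgeR adjusted p = 0.369 and 0.0805). The sideroflexin SFXN2 (-0.37) and the transporter ABCB8 (-0.36) also fell, so that 0 of 18 tested inner-membrane transporters of other families rose and 4 fell, with a median of -0.053. Of 3 porins of the outer membrane, VDAC3 fell (-0.25) and 0 rose, with a median of 0.087. The more highly expressed VDAC1 (0.087) and VDAC2 (0.15) were not called (edgeR adjusted p = 0.182 and 0.0910). Of 10 genes for the import of carrier proteins, the small chaperone TIMM13 fell (-0.36 ± 0.068, edgeR adjusted p = 0.00129, not called in Z5 at 0.0641) and its relative TIMM9 rose (0.17 ± 0.059, edgeR adjusted p = 0.0443, lost without any 1 of Empty a, Empty b, Z2 c, Z5 b, Z5 c, Z9 a and Z9 b at 0.0609 to 0.253 and with no filter beyond 1 count at 0.0501, and not called in any single line). Over all tested genes 13.0% were higher and 12.6% lower.

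Of 18 tested enzymes that use the carriers' substrates, 0 rose and 6 fell, with a median of -0.090. Among all tested genes 13.0% rose and 12.6% fell, with a median of 0.0029. GPD1, the cytosolic enzyme of the glycerol phosphate shuttle, had 7.72 ± 1.6 CPM in Z2, 9.03 ± 1.0 in Z5 and 10.4 ± 0.61 in Z9, against 13.7 ± 1.8 in Empty, a mean of -0.61 ± 0.11 (edgeR adjusted p = 0.000525). The urea cycle gene ASS1 was at -0.40 ± 0.11 (edgeR adjusted p = 0.0193), lost without Empty a or Empty c (0.0954 and 0.0813), and among the single lines called in Z2 (-0.48). CPS1 was at -0.18 and among the single lines called in Z9 (-0.27). In the malate-aspartate shuttle MDH1 was at -0.15, called in Z5 and Z9, and GOT2 at -0.11, called in no single line. ACLY, which splits exported citrate, was at -0.20 in the mean, with -0.14 in Z2 (edgeR adjusted p = 0.181), -0.00060 in Z5 (0.998) and -0.45 in Z9 (0.000265), and it was lower in Z9 than in Z2 and Z5 (-0.32 and -0.45, edgeR adjusted p = 0.0257 and 0.00408). The calls of MDH1, GOT2, CPS1 and ACLY were each lost when a library was left out, MDH1 without Empty a (edgeR adjusted p = 0.107), ACLY without Empty b or Empty c (0.0915 and 0.0956), CPS1 without 7 single libraries (0.0622 to 0.199) and GOT2 without 9 (0.052 to 0.214) and with no filter beyond 1 count (0.0624). ME1 and GPD2 were at or near 0 counts, and OTC did not pass the filter. The carriers named UCP2, UCP3, MTCH1 and MTCH2 were not called (median -0.036).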
